A study of Macaca mulatta with 27 samples.

Results

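The comparison set 3 RNA-seq libraries labelled as rhesus macaque embryonic stem cells and kept in NHSM-v against 3 libraries with the same cell label kept in E-NHSM. Both media are versions of naive human stem cell medium (NHSM), a medium designed to hold primate pluripotent cells in the naive state. These 6 libraries were chosen by their labels among the 27 of the series, and all 17967 gene symbols of the count tables were taken. In the study, a rhesus embryonic stem cell line was moved by several culture protocols from the primed to the naive state, and the reprogrammed cells were followed in host embryos. The labels call the cells of both media naive cells. The study names its line LyonES-tGFP-(S3), in which a tau-GFP fusion is driven by the ubiquitous CAG promoter and a lentiviral vector adds STAT3-ERT2, the transcription factor STAT3 joined to a mutated ligand-binding domain of the estrogen receptor ESR1. Tamoxifen switches STAT3-ERT2 on. None was given with NHSM-v or E-NHSM, and the study treats the fusion protein as inactive in these media. The study describes this line as clonal. Counts on ESR1, given below, differed widely between the media. Whether they came from the transgene was not tested, and cells and medium cannot be told apart. The compositions of the media and the presence of feeder cells are not given in the sources used here, and no ingredient is tied to a difference below. Total counts were 9504626, 10297422 and 12201171 in NHSM-v libraries 1 to 3, and 20760914, 17555947 and 18229288 in E-NHSM libraries 1 to 3. Symbols with at least 1 count numbered 13701, 13500 and 13978 in NHSM-v and 13688, 13891 and 14054 in E-NHSM, so the shallower group detected about as many genes. The 10 most abundant genes took 5.2, 5.24 and 5.21% of the counts in NHSM-v and 3.71, 3.55 and 3.64% in E-NHSM.

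Primed pluripotent cells resemble the epiblast after implantation and naive cells the epiblast before it. Both states rest on a network of transcription factors around POU5F1, NANOG and SOX2, and they differ in signalling, adhesion, DNA methylation and metabolism. Loss of that network can be accompanied by genes of the germ layers and, in some lineages, by a switch from epithelial to mesenchymal adhesion.

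NHSM-v and E-NHSM cells differed in most of the genes that could be tested, in both directions and by large factors. Genes were tested with edgeR's quasi-likelihood test and Benjamini-Hochberg adjustment, and a gene is said to have risen or fallen where its adjusted p was under 0.05 and its level in NHSM-v lay above or below that in E-NHSM. Of 13392 genes tested, 9141 passed (68.3%), with 4478 higher in NHSM-v (33.4%) and 4663 lower (34.8%). Counts of list members called are read beside these shares. A change of at least 1 on the log2 scale was reached by 5537 genes that passed (41.3%), 2838 of them higher and 2699 lower. The median log2 fold change over all genes tested was -0.03, a value that TMM scaling brings near 0 by its construction. Scaling by library totals alone moved that median to -0.154 and upper-quartile scaling moved it to -0.123, from -0.032 under the TMM scaling used, and list medians are read against it. In 9905 genes the 3 values of NHSM-v did not overlap the 3 of E-NHSM (74.0%), and 9001 of the genes that passed were among them (98.5%). An exact permutation test of 3 against 3 libraries cannot go below 0.10, so the calls rest on a spread estimated across genes. The labels do not say that the 3 libraries of a medium came from separate cultures, so p-values measure only the spread between these libraries, which may be technical. Among the genes that passed, 218 had no count in any NHSM-v library and 147 had none in any E-NHSM library. For such a gene a fold change is given as a bound against a floor of 3 counts over the group, which is 0.1 CPM (counts in a library scaled to 1000000 counts) in NHSM-v and 0.0519 CPM in E-NHSM. Where a group held 1 to 3 counts the ratio is given with its 95% counting interval, and intervals and floors cover counting error only. Where only 1 library of a group held counts, the size of the fold change rests on that library. Levels are in CPM on a scale shared by all 27 libraries and not corrected for gene length, so the most abundant member of a list is the one with most reads. A gene near 0 in a medium could be tested only where the other held enough counts, and such genes had to differ. SE is the standard error of the log2 fold change, and a gene is marked as without overlap where every NHSM-v value lay on the same side of every E-NHSM value.

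The distance between the media was then set beside those between the other groups of the series. Taken as the root mean square difference of group mean log2 CPM over 14752 genes, NHSM-v and E-NHSM lay 1.976 apart, the largest of the 28 distances between groups. E-NHSM and t2iLGöY followed closely at 1.95, and the ranking was not repeated under the alternatives. The nearest group to NHSM-v was 4i/L/b, a further naive protocol, at 1.031, whereas the nearest to E-NHSM was the primed group at 0.9967. NHSM-v lay 1.769 from the primed group. Here and in the ranges and medians below, the primed group pools libraries whose columns carry the letters J and K. These differed in ESR1 and STAT3, as given below, so a pooled median may describe neither set. Libraries of a medium lay 0.7549 to 0.8494 from each other and 2.051 to 2.126 from libraries of the other medium, so the gap exceeded the spread between replicates. The plot of all genes tested shows the genes on both sides of the diagonal, with POU5F1, NANOG and CDH1 at the bottom and ZIC1, LEF1 and HOXA2 at the left edge.

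**Figure D1:**
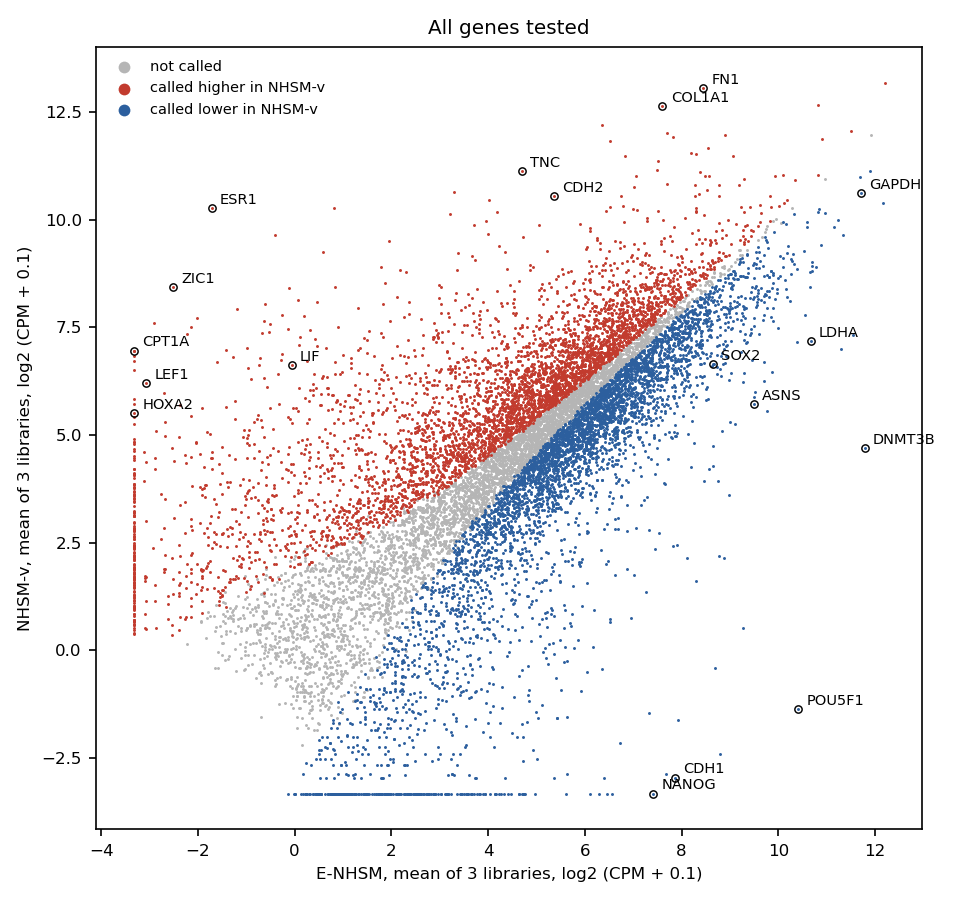
Mean level of each gene tested in E-NHSM (x axis) and NHSM-v (y axis), in log2 of CPM plus 0.1 over 3 libraries each. Colours mark genes higher in NHSM-v (red, 4478), lower in NHSM-v (blue, 4663) and not called (grey, 4251), and the named genes are circled.

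The label of rhesus embryonic stem cells was checked against 8 markers of such cells. E-NHSM carried all 8 at high levels. NHSM-v lacked NANOG and PRDM14 altogether, held POU5F1, TDGF1 and LIN28A near 0, and held the rest lower. By these markers the label held for E-NHSM and not for NHSM-v. NANOG, a homeobox factor of the pluripotent epiblast, stood at 0, 0 and 0 CPM in NHSM-v and 143, 176 and 189 CPM in E-NHSM, at least 1670-fold lower (adjusted p 3.5e-12, no overlap). PRDM14, a repressor of differentiation genes in pluripotent and germ cells, stood at 0, 0 and 0 CPM in NHSM-v and 88.6, 102 and 92.6 CPM in E-NHSM, at least 937-fold lower (adjusted p 1.1e-11, no overlap). No read of either gene was thus counted in any NHSM-v library, at the depths given above. POU5F1, which encodes OCT4, stood at 0.226, 0.206 and 0.44 CPM in NHSM-v and 1350, 1402 and 1345 CPM in E-NHSM, and it fell (log2 fold change -12.11, SE 0.112, adjusted p 4.9e-18, no overlap). Reads of NANOG and POU5F1 can be shared with their processed pseudogenes, and how such reads were counted is not given in the sources used here. The RNA-binding protein gene LIN28A stood at 1.92, 0.823 and 1.23 CPM in NHSM-v and 604, 628 and 615 CPM in E-NHSM, and it fell (log2 fold change -8.88, SE 0.129, adjusted p 4.3e-16, no overlap). TDGF1, the Nodal co-receptor, stood at 0, 0.617 and 0.176 CPM in NHSM-v and 162, 152 and 166 CPM in E-NHSM, and it fell (log2 fold change -9.18, SE 0.27, adjusted p 6.3e-13, no overlap). SOX2, which also marks neural progenitors, was the marker best kept in NHSM-v. It stood at 106, 98.1 and 97.9 CPM in NHSM-v and 383, 411 and 407 CPM in E-NHSM, and it fell (log2 fold change -1.99, SE 0.0686, adjusted p 3.5e-12, no overlap). SALL4, a zinc finger factor of the same network, stood at 10.7, 9.16 and 16.2 CPM in NHSM-v and 494, 502 and 515 CPM in E-NHSM, and it fell (log2 fold change -5.37, SE 0.138, adjusted p 1.6e-13, no overlap). DNMT3B, a de novo DNA methyltransferase, stood at 28.2, 21.6 and 28.1 CPM in NHSM-v and 3564, 3465 and 3537 CPM in E-NHSM, and it fell (log2 fold change -7.09, SE 0.0796, adjusted p 3.8e-17, no overlap). Fewer cells of a kind and less RNA in each cell cannot be told apart in bulk RNA, here and in every list below.

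The whole core pluripotency list moved the same way. Of its 22 symbols, 21 were found and 20 tested, and all 20 fell (68.3% of all genes tested were called). The median log2 fold change was -8.04 (-7.14 with groups at or under the floor set to it) beside -0.03 for all genes tested. Their summed level was 385, 374 and 388 CPM in NHSM-v and 10410, 10534 and 10537 CPM in E-NHSM. The zinc finger gene ZFP42, known as REX1, stood at 0, 0 and 0 CPM in NHSM-v and 74.2, 58 and 75.2 CPM in E-NHSM, at least 693-fold lower (adjusted p 9.2e-11, no overlap). JARID2, a subunit of the Polycomb repressive complex, was among the smaller falls at 76.7, 74.4 and 76.1 CPM in NHSM-v and 612, 587 and 654 CPM in E-NHSM (log2 fold change -3.03, SE 0.0663, adjusted p 3.0e-14, no overlap). FGF4 had no count in NHSM-v and was not tested, and ZSCAN10 was not analysed here.

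Genes that separate naive from primed cells did not shift as a block. On the naive list 10 of 17 genes found were tested, of which 3 rose, 5 fell and 2 did not pass (68.3% of all genes tested were called), with a median of -0.85 (the same with groups at or under the floor set to it) that turns to 0.77 when at least 10 counts are required in every library. The AP-2 factor gene TFAP2C stood at 78.6, 75.6 and 70.4 CPM in NHSM-v and 15.1, 15.1 and 9.1 CPM in E-NHSM, and it rose (log2 fold change 2.51, SE 0.188, adjusted p 2.3e-08, no overlap). KLF5, a Kruppel-like factor, also rose, from 6.6, 6.12 and 5.92 CPM in E-NHSM to 23.8, 37.6 and 33.9 CPM in NHSM-v (log2 fold change 2.35, SE 0.237, adjusted p 6.0e-07, no overlap). Against these, the nuclear receptor gene NR5A2 stood at 0, 0 and 0 CPM in NHSM-v and 26.2, 24 and 28.5 CPM in E-NHSM, at least 261-fold lower (adjusted p 4.7e-09, no overlap). TFCP2L1, a naive-state factor already low in E-NHSM, stood at 0, 0.823 and 0 CPM in NHSM-v and 3.58, 7.17 and 5.28 CPM in E-NHSM, and it fell (log2 fold change -4.26, SE 1.03, adjusted p 0.0021, no overlap). KLF17, ESRRB and DPPA5, markers of naive cells, had no count in NHSM-v and too few in E-NHSM to be tested. Several genes of this list thus lay near the limit of counting in both media. TFE3, a transcription factor gene of the lysosomal programme, was the most abundant in E-NHSM, at 51.3, 51.2 and 53.3 CPM in NHSM-v and 96.4, 88.7 and 97.4 CPM in E-NHSM (log2 fold change -0.86, SE 0.105, adjusted p 4.5e-06, no overlap). By immunostaining, which reads protein and not RNA, the study reports no expression of TFAP2C, KLF4 or TFE3 in cells of either medium.

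The primed list was split evenly, with 8 genes higher and 8 lower among 17 tested (68.3% of all genes tested were called). Its median was 0.28. FAT3, an atypical cadherin gene, stood at 146, 141 and 159 CPM in NHSM-v and 1.04, 3.73 and 3.44 CPM in E-NHSM, and it rose (log2 fold change 5.79, SE 0.266, adjusted p 9.2e-11, no overlap). HMGA2, a chromatin protein gene, was the most abundant of the list in NHSM-v, at 510, 534 and 532 CPM in NHSM-v and 60.8, 67.9 and 73.4 CPM in E-NHSM (log2 fold change 2.96, SE 0.0771, adjusted p 1.8e-13, no overlap). The opposite direction was led by SFRP1, a secreted Wnt antagonist, at 1.8, 0.926 and 2.02 CPM in NHSM-v and 133, 125 and 114 CPM in E-NHSM (log2 fold change -6.28, SE 0.201, adjusted p 1.5e-12, no overlap). The surface protein gene CD24 fell from the highest level of the list in E-NHSM, at 324, 326 and 356 CPM in NHSM-v and 1165, 1100 and 1155 CPM in E-NHSM (log2 fold change -1.77, SE 0.0541, adjusted p 9.5e-13, no overlap). CYTL1 did not pass, at 6.99, 5.35 and 3.7 CPM in NHSM-v and 4.85, 3.56 and 3.44 CPM in E-NHSM (adjusted p 0.44, overlapping groups).

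Genes that write and erase DNA methylation also moved both ways. Of 12 tested, 4 were higher and 8 lower (68.3% of all genes tested were called), with a median of -0.53. DNMT3B made the largest fall of the list. The dioxygenase gene TET2 made the largest rise, at 105, 116 and 101 CPM in NHSM-v and 17.1, 8.84 and 9.58 CPM in E-NHSM (log2 fold change 3.17, SE 0.209, adjusted p 5.4e-09, no overlap). Its relative TET1 moved the other way, at 35.2, 27.5 and 35.3 CPM in NHSM-v and 192, 213 and 198 CPM in E-NHSM (log2 fold change -2.63, SE 0.109, adjusted p 2.9e-11, no overlap). UHRF1, which brings the maintenance methyltransferase to replicating DNA, stood at 256, 245 and 229 CPM in NHSM-v and 88.4, 89.8 and 91.1 CPM in E-NHSM, and it rose (log2 fold change 1.43, SE 0.0754, adjusted p 4.3e-10, no overlap). The summed level of the list was 1729, 1742 and 1788 CPM in NHSM-v and 5534, 5398 and 5504 CPM in E-NHSM, a difference made up mostly by DNMT3B. TRIM28, at 503, 518 and 521 CPM in NHSM-v and 749, 699 and 720 CPM in E-NHSM, was the most abundant gene of the list in NHSM-v (log2 fold change -0.50, SE 0.0502, adjusted p 6.0e-07, no overlap).

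Adhesion genes divided the media. NHSM-v had lost most epithelial transcripts and carried mesenchymal ones at high levels, whereas E-NHSM kept the former and held most of the latter low. Of 23 epithelial genes tested, 21 fell, 1 rose and 1 did not pass (68.3% of all genes tested were called), with a median of -7.00 (-6.38 with groups at or under the floor set to it). CDH1, the gene of E-cadherin, stood at 0, 0 and 0.088 CPM in NHSM-v and 217, 234 and 244 CPM in E-NHSM, and it fell (E-NHSM to NHSM-v ratio 6915, 95% counting interval 1241 to 273138, adjusted p 9.0e-15, no overlap). In the 6 primed libraries CDH1 ranged from 30.6 to 108 CPM (median 66.1), so E-NHSM lay above the primed range and NHSM-v below it. Other epithelial genes followed CDH1. EPCAM, an epithelial adhesion protein, stood at 0, 0.412 and 0.264 CPM in NHSM-v and 265, 219 and 241 CPM in E-NHSM, and it fell (log2 fold change -9.97, SE 0.234, adjusted p 5.7e-14, no overlap). The splicing regulator ESRP1, which sets epithelial isoforms, stood at 0.113, 0 and 0 CPM in NHSM-v and 201, 213 and 203 CPM in E-NHSM, and it fell (E-NHSM to NHSM-v ratio 6157, 95% counting interval 1105 to 243192, adjusted p 1.5e-14, no overlap). CLDN7, a claudin of tight junctions, stood at 0, 0 and 0 CPM in NHSM-v and 56.5, 36.4 and 52.5 CPM in E-NHSM, at least 488-fold lower (adjusted p 9.4e-10, no overlap). Tight junction genes did not all follow. The claudin CLDN6 rose and was the most abundant gene of the list in both media, at 366, 355 and 350 CPM in NHSM-v and 318, 312 and 301 CPM in E-NHSM (log2 fold change 0.20, SE 0.057, adjusted p 0.0073, no overlap), though it no longer passed under library totals (adjusted p 0.27), under upper-quartile scaling (adjusted p 0.12) or with all 8 groups in 1 fit (adjusted p 0.25). PROM2 did not pass, at 0.113, 1.13 and 0.968 CPM in NHSM-v and 1.18, 0.834 and 1.29 CPM in E-NHSM (adjusted p 0.63, overlapping groups).

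On the mesenchymal list 15 of 17 genes tested rose and 2 fell (68.3% of all genes tested were called), with a median of 4.62 (the same with groups at or under the floor set to it). Summed over the list, levels were 21799, 21846 and 21455 CPM in NHSM-v and 1246, 1264 and 1238 CPM in E-NHSM. FN1, the gene of fibronectin and the most abundant of the list in both media, stood at 8625, 8607 and 8482 CPM in NHSM-v and 352, 343 and 347 CPM in E-NHSM, and it rose (log2 fold change 4.62, SE 0.0337, adjusted p 5.8e-19, no overlap). Primed libraries held 786 to 1652 CPM (median 1241) of FN1, below NHSM-v and above E-NHSM. TNC, which encodes the matrix protein tenascin C, stood at 2237, 2270 and 2196 CPM in NHSM-v and 26.3, 24.6 and 26.8 CPM in E-NHSM, and it rose (log2 fold change 6.43, SE 0.057, adjusted p 4.4e-18, no overlap). VIM and TGFB2 rose as well. VIM, the gene of the intermediate filament protein vimentin, stood at 3862, 3889 and 3849 CPM in NHSM-v and 207, 221 and 251 CPM in E-NHSM, and it rose (log2 fold change 4.09, SE 0.0624, adjusted p 7.4e-16, no overlap). TGFB2, a transforming growth factor ligand, stood at 433, 432 and 450 CPM in NHSM-v and 2.64, 8.01 and 3.82 CPM in E-NHSM, and it rose (log2 fold change 6.53, SE 0.225, adjusted p 3.6e-12, no overlap). The zinc finger repressors did not move together, since ZEB1 rose while SNAI1 fell. ZEB1 stood at 190, 212 and 220 CPM in NHSM-v and 5.42, 6.62 and 5.97 CPM in E-NHSM (log2 fold change 5.11, SE 0.121, adjusted p 6.5e-14, no overlap). SNAI1 stood at 0.338, 1.13 and 0.616 CPM in NHSM-v and 9.85, 7.73 and 7.97 CPM in E-NHSM (log2 fold change -3.60, SE 0.549, adjusted p 4.2e-05, no overlap).

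Cadherins moved in both directions. Of 20 cadherin and protocadherin genes tested, 12 rose and 5 fell (68.3% of all genes tested were called). Their median was 3.13 (the same with groups at or under the floor set to it). CDH2, the gene of N-cadherin, stood at 1531, 1503 and 1457 CPM in NHSM-v and 43.2, 40.6 and 39.1 CPM in E-NHSM, and it rose (log2 fold change 5.19, SE 0.0601, adjusted p 4.4e-17, no overlap), while CDH1 fell. In primed libraries CDH2 ranged from 200 to 358 CPM (median 264), between the media. Not only the classical pair E- and N-cadherin differed. CDH13, a cadherin anchored to the membrane by a lipid, stood at 225, 192 and 188 CPM in NHSM-v and 4.9, 2.5 and 4.09 CPM in E-NHSM, and it rose (log2 fold change 5.70, SE 0.176, adjusted p 1.1e-12, no overlap). CDH3, the gene of P-cadherin, stood at 22.2, 23.2 and 21 CPM in NHSM-v and 118, 107 and 114 CPM in E-NHSM, and it fell (log2 fold change -2.36, SE 0.117, adjusted p 2.3e-10, no overlap). Matrix genes rose with few exceptions, 23 of 28 genes of collagens, laminins, nidogens and perlecan tested against 1 that fell, with a median of 3.01. Their summed level was 27162, 26740 and 26884 CPM in NHSM-v and 2376, 2329 and 2269 CPM in E-NHSM. COL2A1, a collagen of cartilage and notochord, made the largest rise, at 737, 710 and 720 CPM in NHSM-v and 3.63, 3.34 and 4.25 CPM in E-NHSM (log2 fold change 7.59, SE 0.0895, adjusted p 4.9e-17, no overlap). COL1A1, a chain of type I collagen, was the most abundant in NHSM-v, at 6153, 6707 and 6239 CPM in NHSM-v and 179, 203 and 200 CPM in E-NHSM (log2 fold change 5.03, SE 0.0571, adjusted p 3.8e-17, no overlap). LAMA5, a laminin chain of epithelial basement membranes, fell, at 239, 207 and 251 CPM in NHSM-v and 300, 282 and 266 CPM in E-NHSM (log2 fold change -0.29, SE 0.0791, adjusted p 0.0049, no overlap).

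All 16 fibroblast genes tested rose (68.3% of all genes tested were called), with a median of 4.83 (the same with groups at or under the floor set to it). Of 18 symbols 17 were found, and their summed level was 14835, 14978 and 14942 CPM in NHSM-v and 1126, 1179 and 1051 CPM in E-NHSM. COL1A1 was the most abundant member in NHSM-v and TAGLN, an actin-binding protein of contractile cells, in E-NHSM. TAGLN stood at 2970, 2671 and 2876 CPM in NHSM-v and 566, 562 and 476 CPM in E-NHSM (log2 fold change 2.40, SE 0.0635, adjusted p 2.1e-13, no overlap). ACTA2, a smooth muscle actin, stood at 1398, 1370 and 1454 CPM in NHSM-v and 11.4, 21 and 16 CPM in E-NHSM, and it rose (log2 fold change 6.45, SE 0.147, adjusted p 4.2e-14, no overlap). The proteoglycan genes LUM and DCN, which define fibroblasts, had no count in E-NHSM and were low in NHSM-v. LUM stood at 9.25, 8.13 and 10.7 CPM in NHSM-v and 0, 0 and 0 CPM in E-NHSM, at least 181-fold higher (adjusted p 1.1e-06, no overlap). Collagen and contractile genes of this list are also expressed by mesenchymal derivatives of stem cells, and whether fibroblasts formed part of the NHSM-v cultures was not tested. The plot of levels in every library shows these genes beside the primed range.

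**Figure D2:**
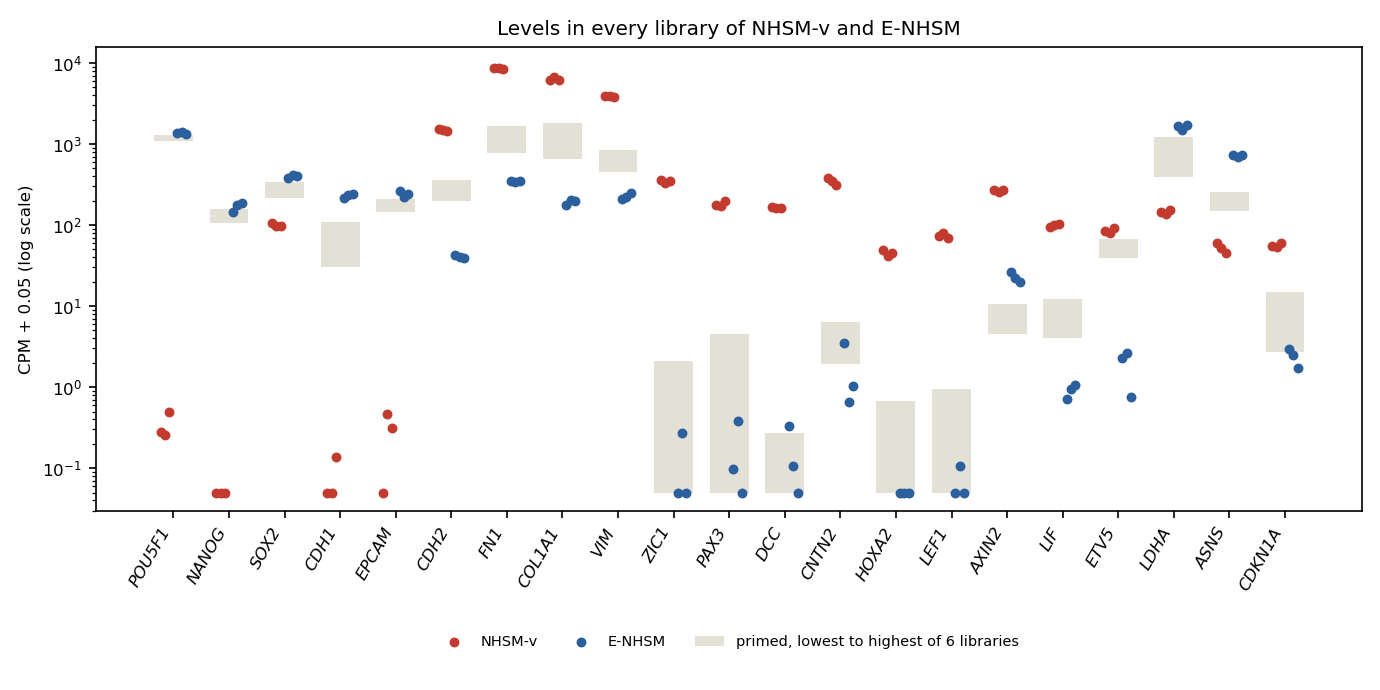
CPM plus 0.05 on a log scale in each of the 3 NHSM-v (red) and 3 E-NHSM (blue) libraries for 21 genes, with grey bars from the lowest to the highest of 6 primed libraries. The values of the media do not overlap for any gene drawn, nor for 74.0% of all genes tested. The genes drawn were picked with results of these data known.

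The most abundant genes that changed by at least 1 on the log2 scale, 4 in each direction, were FN1, FLNA, COL1A1 and IGFBP5 on the NHSM-v side and HSP90AB1, GAPDH, DNMT3B and ENO1 on the E-NHSM side. FLNA, an actin crosslinker, stood at 6463, 6592 and 6506 CPM in NHSM-v and 1887, 1766 and 1747 CPM in E-NHSM, and it rose (log2 fold change 1.85, SE 0.0359, adjusted p 8.1e-15, no overlap). IGFBP5, a secreted binding protein of insulin-like growth factors, stood at 4714, 4567 and 4866 CPM in NHSM-v and 93.2, 91.6 and 60.8 CPM in E-NHSM, and it rose (log2 fold change 5.84, SE 0.128, adjusted p 3.1e-14, no overlap). The values of FN1 and COL1A1 are given above. On the other side, the chaperone gene HSP90AB1 stood at 1384, 1276 and 1343 CPM in NHSM-v and 4743, 4441 and 4587 CPM in E-NHSM, and it fell (log2 fold change -1.79, SE 0.0394, adjusted p 3.1e-14, no overlap). GAPDH, a glycolytic enzyme often used as a reference gene, stood at 1600, 1578 and 1558 CPM in NHSM-v and 3306, 3246 and 3456 CPM in E-NHSM, and it fell (log2 fold change -1.08, SE 0.0365, adjusted p 2.8e-12, no overlap). ENO1, a further glycolytic enzyme, stood at 1070, 1030 and 985 CPM in NHSM-v and 2539, 2214 and 2511 CPM in E-NHSM, and it fell (log2 fold change -1.24, SE 0.0535, adjusted p 4.4e-11, no overlap). DNMT3B, described above, was the remaining gene on that side.

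Many genes of neural development were absent or low in E-NHSM and present in NHSM-v. The neural patterning list held 50 symbols, all found, of which 34 were tested, 26 rose, 1 fell and 7 did not pass (68.3% of all genes tested were called). The median was 5.39 (5.24 with groups at or under the floor set to it). Summed levels were 1408, 1338 and 1483 CPM in NHSM-v and 63.8, 73.2 and 62.9 CPM in E-NHSM, beside 96 to 146 CPM over the 6 primed libraries, so NHSM-v lay far above the primed range and E-NHSM below it. The list had 19 genes without a count in E-NHSM and 6 without a count in NHSM-v. Members near 0 in E-NHSM could be tested only where NHSM-v held enough counts, so the filter set their direction. ZIC1, a zinc finger factor of the dorsal neural tube, was its most abundant gene in NHSM-v, at 356, 327 and 353 CPM in NHSM-v and 0, 0.222 and 0 CPM in E-NHSM (log2 fold change 12.11, SE 0.234, adjusted p 7.9e-15, no overlap). PAX3, a paired box factor of dorsal neural tube and neural crest, stood at 176, 172 and 198 CPM in NHSM-v and 0.0471, 0.334 and 0 CPM in E-NHSM, and it rose (log2 fold change 10.45, SE 0.278, adjusted p 2.2e-13, no overlap). LMX1B, which patterns midbrain and hindbrain, stood at 26.2, 23 and 27.7 CPM in NHSM-v and 0, 0 and 0 CPM in E-NHSM, at least 495-fold higher (adjusted p 2.5e-09, no overlap). Not every neural factor followed, since NKX2-2 and OTX1 had no count in either medium and the neural progenitor gene SOX3 fell. SOX3 stood at 0.789, 0.514 and 0 CPM in NHSM-v and 3.25, 3.89 and 0.861 CPM in E-NHSM (log2 fold change -2.64, SE 1.08, adjusted p 0.042, no overlap). This call was lost when single libraries were left out (adjusted p up to 0.13) and with replicate number as a block (adjusted p 0.061). SOX21, the most abundant member in E-NHSM, did not pass, at 16, 19 and 23 CPM in NHSM-v and 27.1, 24.1 and 26.9 CPM in E-NHSM (adjusted p 0.066, no overlap), though it fell under some alternatives, among them upper-quartile scaling (adjusted p 0.028) and library totals (adjusted p 0.021).

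Genes of neurons followed in the same direction. Of 36 proneural and neuronal genes tested, 32 rose, 2 fell and 2 did not pass (68.3% of all genes tested were called), with a median of 4.61 (the same with groups at or under the floor set to it). Their summed level was 3640, 3527 and 3407 CPM in NHSM-v and 522, 535 and 471 CPM in E-NHSM, where 9 members had no count. ST18, a zinc finger factor of differentiating neurons, stood at 15.3, 15 and 10.1 CPM in NHSM-v and 0, 0 and 0 CPM in E-NHSM, at least 255-fold higher (adjusted p 1.5e-07, no overlap). NCAM1, a neural cell adhesion molecule and the most abundant member in NHSM-v, stood at 798, 724 and 792 CPM in NHSM-v and 29.2, 31.1 and 18.1 CPM in E-NHSM, and it rose (log2 fold change 4.88, SE 0.146, adjusted p 7.7e-13, no overlap). MAP2, a microtubule protein of dendrites and the most abundant member in E-NHSM, stood at 608, 620 and 629 CPM in NHSM-v and 90.9, 98.1 and 82.9 CPM in E-NHSM, and it rose (log2 fold change 2.77, SE 0.07, adjusted p 1.3e-13, no overlap). Exceptions were few. The early B-cell factor gene EBF2 went the other way, at 4.74, 2.78 and 4.23 CPM in NHSM-v and 57.7, 58.6 and 60.7 CPM in E-NHSM (log2 fold change -3.92, SE 0.208, adjusted p 4.7e-10, no overlap). ATOH1 and NEUROG3 had no count in NHSM-v and were not tested, and INA did not pass at 113, 100 and 89.3 CPM in NHSM-v and 87.4, 91.1 and 78.7 CPM in E-NHSM (adjusted p 0.076, overlapping groups), though it passed without NHSM-v library 3 (adjusted p 0.03). Neural progenitor genes rose in 13 and fell in 4 of 17 tested, with a median of 2.60 and summed levels of 8482, 8498 and 8373 CPM in NHSM-v and 2676, 2740 and 2670 CPM in E-NHSM. VIM and CDH2, described above as mesenchymal genes, are also on this list and made up most of the difference between the sums. NR2F1, an orphan nuclear receptor gene of the developing brain, stood at 251, 243 and 234 CPM in NHSM-v and 0.236, 0.723 and 0.0538 CPM in E-NHSM, and it rose (log2 fold change 9.48, SE 0.236, adjusted p 1.1e-13, no overlap). NES, the gene of the intermediate filament protein nestin, was the most abundant member in E-NHSM, at 1944, 1947 and 1953 CPM in NHSM-v and 1319, 1347 and 1213 CPM in E-NHSM (log2 fold change 0.59, SE 0.0439, adjusted p 2.1e-08, no overlap). The largest fall was that of the receptor phosphatase gene PTPRZ1, at 18.9, 14.6 and 11.8 CPM in NHSM-v and 422, 418 and 450 CPM in E-NHSM (log2 fold change -4.85, SE 0.123, adjusted p 1.4e-13, no overlap).

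Axon guidance genes, which also act in vessels and mesenchyme, rose in 30 and fell in 4 of 37 tested (68.3% of all genes tested were called). Their median was 2.90 (the same with groups at or under the floor set to it). DCC, the netrin receptor, stood at 168, 161 and 162 CPM in NHSM-v and 0.283, 0.0556 and 0 CPM in E-NHSM, and it rose (log2 fold change 10.30, SE 0.267, adjusted p 1.7e-13, no overlap). The semaphorin gene SEMA3C was the most abundant of the list in NHSM-v, at 934, 922 and 973 CPM in NHSM-v and 11.9, 9.56 and 17.4 CPM in E-NHSM (log2 fold change 6.18, SE 0.146, adjusted p 6.1e-14, no overlap). SEMA3E stood at 24.1, 12.6 and 14.6 CPM in NHSM-v and 0, 0 and 0 CPM in E-NHSM, at least 322-fold higher (adjusted p 7.1e-08, no overlap). NTN4, a netrin of basement membranes, made the largest fall, at 8.68, 5.97 and 8.54 CPM in NHSM-v and 40.6, 30.1 and 33.6 CPM in E-NHSM (log2 fold change -2.17, SE 0.225, adjusted p 8.1e-07, no overlap). Ligands and receptors were found on both sides, and the list summed to 5934, 5906 and 5966 CPM in NHSM-v and 1151, 1194 and 1213 CPM in E-NHSM. ROBO2 did not pass, at 68.1, 61.3 and 79.7 CPM in NHSM-v and 62.8, 75 and 73.6 CPM in E-NHSM (adjusted p 0.9, overlapping groups).

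HOX genes, which pattern the body axis behind the midbrain, were close to absent from E-NHSM. Of 38 found, 17 were tested and all 17 rose (68.3% of all genes tested were called), with a median of 5.40 (5.17 with groups at or under the floor set to it). As E-NHSM lay near 0, most members could be tested only where NHSM-v held enough counts. Their direction was thus largely set by the filter. Summed over the family, levels were 153, 147 and 143 CPM in NHSM-v and 1.37, 4.67 and 2.69 CPM in E-NHSM, where 21 members had no count. HOXA2, a hindbrain gene, was the most abundant of them in NHSM-v, at 49.8, 41.5 and 44.7 CPM in NHSM-v and 0, 0 and 0 CPM in E-NHSM, at least 870-fold higher (adjusted p 1.4e-10, no overlap). HOXC6, a gene of more posterior segments, stood at 8.46, 18.6 and 14.6 CPM in NHSM-v and 0, 0 and 0 CPM in E-NHSM, at least 271-fold higher (adjusted p 2.4e-07, no overlap). HOXB13 and HOXC13 had no count in either medium and were not tested.

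Neural crest genes were divided. With 5 risen, 5 fallen and 3 not passing among 13 tested (68.3% of all genes tested were called), the median was -0.32 (the same with groups at or under the floor set to it), which turns to 0.23 without a count filter and to 0.00 when all 8 groups are fitted together. The summed level was 1501, 1473 and 1454 CPM in NHSM-v and 620, 598 and 582 CPM in E-NHSM. CDH6 alone made up most of the sum in NHSM-v, and without it the sum was lower in NHSM-v than in E-NHSM. TFAP2A, an AP-2 factor of crest and surface ectoderm, stood at 23.9, 17.4 and 20.6 CPM in NHSM-v and 0, 0.0556 and 0 CPM in E-NHSM, and it rose (NHSM-v to E-NHSM ratio 1187, 95% counting interval 212 to 46949, adjusted p 2.4e-09, no overlap). CDH6, a cadherin of premigratory crest and kidney, was the most abundant member in NHSM-v, at 1221, 1190 and 1175 CPM in NHSM-v and 133, 139 and 133 CPM in E-NHSM (log2 fold change 3.14, SE 0.0517, adjusted p 1.4e-15, no overlap). SOX10, which defines migrating crest, was too low to be tested, and whether crest cells were present was not tested.

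Fewer genes of the other embryonic lineages could be tested, and their lists held no common direction. The endoderm list had only 6 of 19 genes with enough counts to test, of which 2 rose, 2 fell and 2 did not pass, near the 68.3% called among all genes tested. Its median of -0.24 (the same with groups at or under the floor set to it) turns to 1.01 without NHSM-v library 2, to 0.34 without E-NHSM library 1 and to 1.06 without E-NHSM library 2, so no direction is given. Summed levels were 242, 245 and 241 CPM in NHSM-v and 95.5, 87.3 and 83.8 CPM in E-NHSM, with LAMA1, a laminin chain, the most abundant member in both media. LAMA1 stood at 160, 174 and 172 CPM in NHSM-v and 71, 53.7 and 58.9 CPM in E-NHSM, and it rose (log2 fold change 1.46, SE 0.107, adjusted p 1.8e-08, no overlap). SOX17 and FOXA2, which define endoderm, had no count in NHSM-v and were not tested. The chemokine receptor gene CXCR4 stood at 72, 66 and 60.3 CPM in NHSM-v and 1.37, 0.222 and 1.83 CPM in E-NHSM, and it rose (log2 fold change 5.82, SE 0.36, adjusted p 2.5e-09, no overlap). AFP, a serum protein gene of visceral endoderm and liver, stood at 0, 0 and 0 CPM in NHSM-v and 5.61, 9.29 and 7.37 CPM in E-NHSM, at least 73-fold lower (adjusted p 5.7e-06, no overlap). For the mesoderm list no direction is given either, since its median of 0.02 (the same with groups at or under the floor set to it) turns to -0.07 under upper-quartile scaling and to -0.10 under library totals. Of 11 mesoderm genes tested 5 rose and 3 fell, a share also near that of all genes tested, with summed levels of 96.7, 93.9 and 78.3 CPM in NHSM-v and 47.7, 48.7 and 44.7 CPM in E-NHSM. KDR, a receptor of vascular endothelial growth factor, was the most abundant in both media, at 62.9, 63.3 and 55.2 CPM in NHSM-v and 17.2, 14.2 and 18 CPM in E-NHSM (log2 fold change 1.87, SE 0.158, adjusted p 8.4e-08, no overlap). The forkhead gene FOXC2 stood at 2.26, 1.03 and 4.23 CPM in NHSM-v and 0, 0 and 0 CPM in E-NHSM, at least 50.1-fold higher (adjusted p 5.7e-04, no overlap). HAND1, NKX2-5 and MYOD1, markers of mesodermal lineages, had no count in either medium.

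On the trophoblast and amnion list 9 of 22 genes were tested, 5 rose and 2 fell (68.3% of all genes tested were called), with a median of 0.90 (the same with groups at or under the floor set to it). Its summed level hardly differed, at 172, 172 and 179 CPM in NHSM-v and 158, 162 and 157 CPM in E-NHSM, but the genes behind it did. VTCN1, an immune checkpoint ligand expressed in amnion, was the most abundant member in E-NHSM, at 0, 0 and 0 CPM in NHSM-v and 80.9, 86.4 and 94.4 CPM in E-NHSM, at least 868-fold lower (adjusted p 1.7e-11, no overlap). Primed libraries carried 105 to 143 CPM (median 111) of VTCN1, above both media. In NHSM-v the growth factor binding protein gene IGFBP3 was the most abundant, at 56.5, 67.7 and 64.8 CPM in NHSM-v and 28.4, 32.2 and 22.4 CPM in E-NHSM (log2 fold change 1.18, SE 0.159, adjusted p 1.2e-05, no overlap). CDX2, ELF5 and CGA, which define trophoblast, had no count in either medium, and the presence of such cells was not tested. The plot of gene lists sets the calls of all 37 lists beside their medians.

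**Figure D3:**
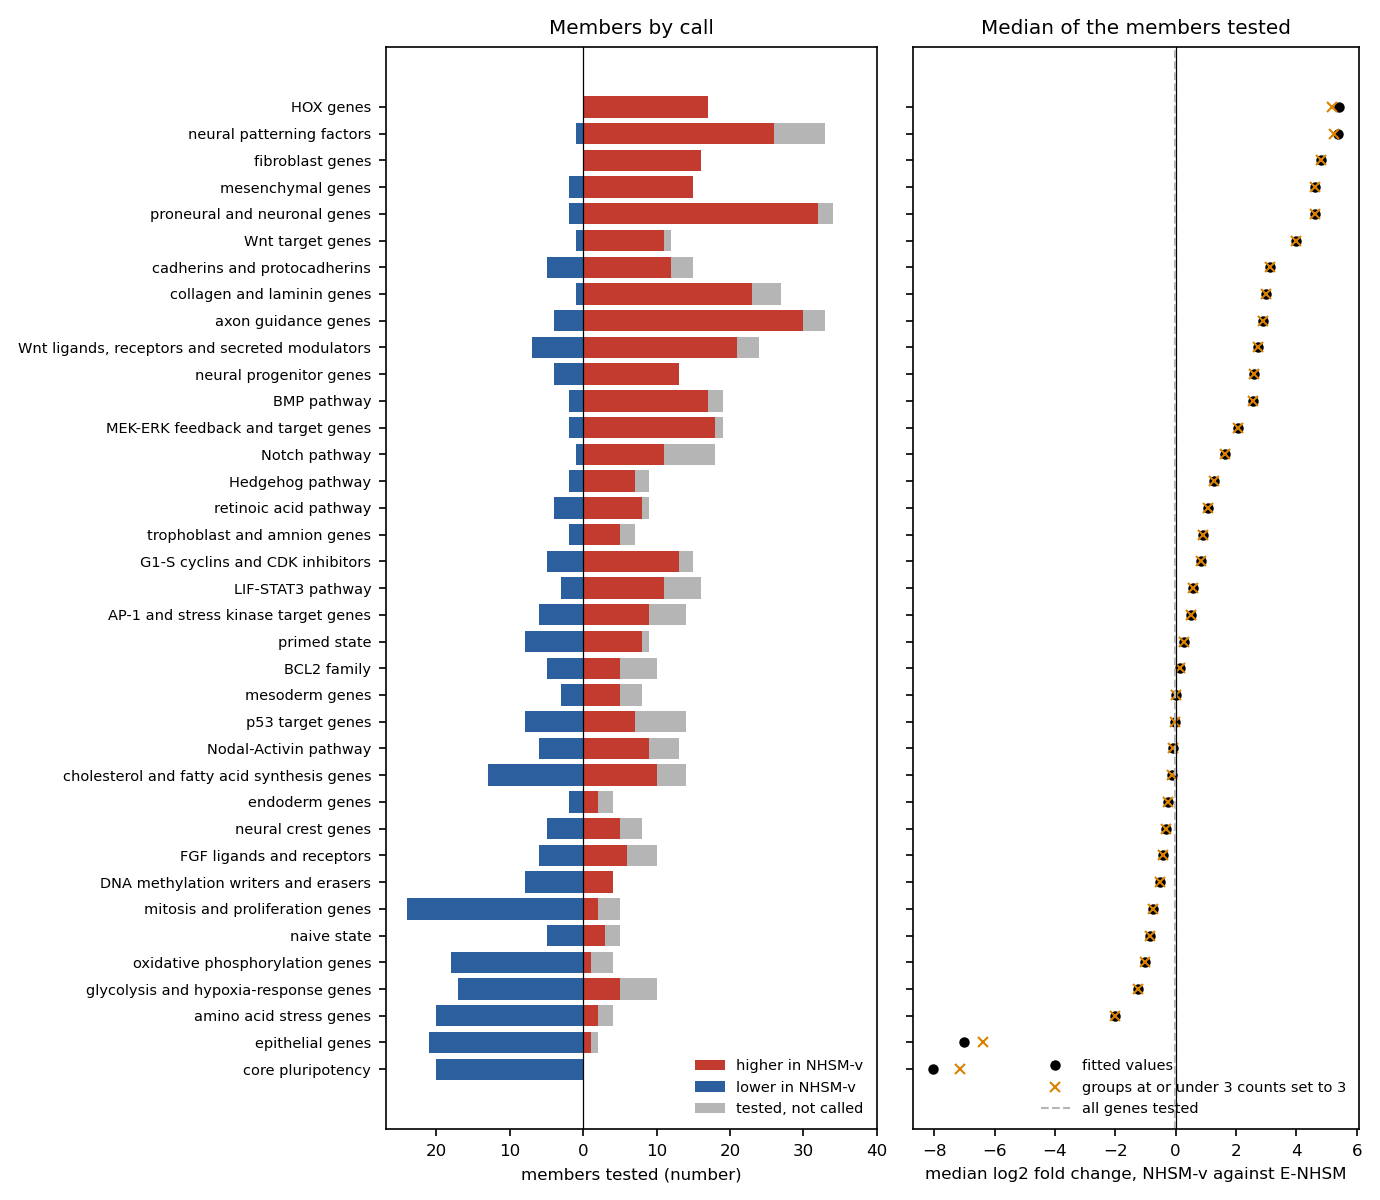
For each of 37 gene lists, the number of tested members higher in NHSM-v (red), lower in NHSM-v (blue) and not called (grey), and the median log2 fold change as fitted (dots) and with groups at or under 3 counts set to 3 (crosses). The dashed line is the median of all genes tested, -0.03, and HOX and core pluripotency genes lie at opposite ends of the fitted medians. Among the crosses, neural patterning genes (5.24) lie above HOX genes (5.17).

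Signalling pathways differed in ligands, receptors and feedback genes. Feedback and target genes of the MEK-ERK pathway were higher in NHSM-v, with 18 of 21 tested risen, 2 fallen (68.3% of all genes tested were called) and a median of 2.05. ETV5, an ETS factor induced by ERK, stood at 84.8, 78.8 and 92.3 CPM in NHSM-v and 2.21, 2.56 and 0.7 CPM in E-NHSM, and it rose (log2 fold change 5.53, SE 0.285, adjusted p 3.4e-10, no overlap). In primed libraries ETV5 ranged from 39 to 66.9 CPM (median 53.3), closer to NHSM-v than to E-NHSM. DUSP6, a phosphatase that switches ERK off, stood at 187, 188 and 193 CPM in NHSM-v and 26.6, 47.2 and 33.6 CPM in E-NHSM, and it rose (log2 fold change 2.40, SE 0.157, adjusted p 4.7e-09, no overlap). Primed libraries held 523 to 695 CPM (median 544) of DUSP6, above both media. The FGF co-receptor gene IL17RD was the most abundant member in both media, at 638, 601 and 632 CPM in NHSM-v and 202, 203 and 189 CPM in E-NHSM (log2 fold change 1.65, SE 0.0574, adjusted p 3.9e-12, no overlap). MYC, a transcription factor gene of growing cells, fell, at 75.2, 73.8 and 65.8 CPM in NHSM-v and 153, 164 and 147 CPM in E-NHSM (log2 fold change -1.12, SE 0.0925, adjusted p 6.7e-08, no overlap). SPRED1 did not pass, at 45.3, 61.6 and 53.3 CPM in NHSM-v and 41.4, 50.9 and 44.8 CPM in E-NHSM (adjusted p 0.2, overlapping groups). The plot of pathway members shows that on this list the DUSP, SPRY and ETV genes rose with the exception of ETV1.

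AP-1 and stress kinase target genes were mixed, with 9 higher, 6 lower and 5 not passing among 20 tested and a median of 0.52, a share called near the 68.3% of all genes tested. EGR3, an immediate early gene, stood at 9.47, 15.4 and 6.25 CPM in NHSM-v and 0, 0.278 and 0 CPM in E-NHSM, and it rose (log2 fold change 6.75, SE 0.904, adjusted p 1.2e-05, no overlap). CTGF, a matricellular protein gene induced by YAP, was the most abundant in both media, at 1991, 2018 and 2165 CPM in NHSM-v and 388, 411 and 333 CPM in E-NHSM (log2 fold change 2.44, SE 0.0682, adjusted p 3.7e-13, no overlap). GADD45G, a stress response gene, stood at 6.77, 9.05 and 7.22 CPM in NHSM-v and 64.3, 56.3 and 76.3 CPM in E-NHSM, and it fell (log2 fold change -3.10, SE 0.189, adjusted p 2.2e-09, no overlap). FOS, the AP-1 subunit, moved against its partner JUN. FOS stood at 4.74, 4.12 and 5.28 CPM in NHSM-v and 16, 16.6 and 26.2 CPM in E-NHSM, and it fell (log2 fold change -2.06, SE 0.298, adjusted p 2.5e-05, no overlap). JUN stood at 241, 215 and 249 CPM in NHSM-v and 76.5, 65.6 and 75.9 CPM in E-NHSM, and it rose (log2 fold change 1.69, SE 0.0899, adjusted p 4.8e-10, no overlap).

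Wnt target genes were higher in NHSM-v, 11 of 13 tested having risen and 1 fallen (68.3% of all genes tested were called). Their median was 3.98 (the same with groups at or under the floor set to it). LEF1, a nuclear partner of beta-catenin, stood at 73.5, 79.5 and 69.2 CPM in NHSM-v and 0, 0.0556 and 0 CPM in E-NHSM, and it rose (NHSM-v to E-NHSM ratio 4266, 95% counting interval 765 to 168591, adjusted p 1.1e-12, no overlap). AXIN2, the feedback inhibitor of the pathway, stood at 270, 257 and 273 CPM in NHSM-v and 26.5, 22.1 and 19.7 CPM in E-NHSM, and it rose (log2 fold change 3.54, SE 0.108, adjusted p 9.0e-13, no overlap). AXIN2 ranged from 4.43 to 10.6 CPM (median 6.75) in primed libraries, below both media. TNFRSF19, a receptor of the tumour necrosis factor family, was the most abundant member in NHSM-v, at 497, 471 and 477 CPM in NHSM-v and 35.4, 32.1 and 23.5 CPM in E-NHSM (log2 fold change 3.98, SE 0.118, adjusted p 7.0e-13, no overlap). SP8 went the other way, at 0, 0 and 0 CPM in NHSM-v and 2.54, 3.34 and 4.09 CPM in E-NHSM, at least 32.8-fold lower (adjusted p 2.1e-04, no overlap). T, the brachyury gene and a Wnt target of the primitive streak, was not tested for want of counts, and TCF7 did not pass at 33, 27 and 34.2 CPM in NHSM-v and 38.6, 39.9 and 30.5 CPM in E-NHSM (adjusted p 0.27, overlapping groups). Ligands, receptors and secreted modulators of the pathway rose in 21 and fell in 7 of 31 tested, with a median of 2.74 (the same with groups at or under the floor set to it). WLS, the carrier that brings Wnt proteins to the surface, was the most abundant in NHSM-v, at 1198, 1110 and 1059 CPM in NHSM-v and 7.3, 9.23 and 10.9 CPM in E-NHSM (log2 fold change 6.94, SE 0.11, adjusted p 1.0e-15, no overlap). RSPO1, an R-spondin that strengthens Wnt signals, stood at 18.2, 14.4 and 17.4 CPM in NHSM-v and 0, 0 and 0 CPM in E-NHSM, at least 320-fold higher (adjusted p 3.1e-08, no overlap). The receptor gene FZD5, the most abundant member in E-NHSM, stood at 7.11, 2.06 and 3.87 CPM in NHSM-v and 266, 289 and 275 CPM in E-NHSM, and it fell (log2 fold change -6.02, SE 0.21, adjusted p 3.9e-12, no overlap). Among receptors, FZD5 and FZD7 fell and FZD1, FZD2, FZD3 and FZD10 rose.

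LIF and its receptor subunit IL6ST were higher in NHSM-v. Of 19 genes of the LIF-STAT3 list 11 rose, 3 fell and 5 did not pass, with a median of 0.56, a share called near the 68.3% of all genes tested. STAT3, on which transgene reads can be counted, is among those that rose. LIF itself, the cytokine that keeps naive mouse cells in culture, stood at 94.1, 101 and 102 CPM in NHSM-v and 0.66, 0.89 and 1.02 CPM in E-NHSM, and it rose (log2 fold change 6.85, SE 0.193, adjusted p 4.1e-13, no overlap). Primed libraries held 3.94 to 12.3 CPM (median 6.54) of LIF, below NHSM-v and above E-NHSM. IL6ST, the shared receptor subunit gp130, stood at 335, 311 and 282 CPM in NHSM-v and 52, 53.5 and 58.9 CPM in E-NHSM, and it rose (log2 fold change 2.49, SE 0.087, adjusted p 4.1e-12, no overlap). Its partner LIFR did not pass, at 88, 71.3 and 79.7 CPM in NHSM-v and 69.4, 89.8 and 89.4 CPM in E-NHSM (adjusted p 0.67, overlapping groups). Feedback inhibitors moved in both directions. SOCS1 fell, at 0.564, 0.72 and 0 CPM in NHSM-v and 5.04, 3 and 2.48 CPM in E-NHSM (log2 fold change -3.05, SE 0.965, adjusted p 0.012, no overlap). CISH stood at 12.4, 11 and 17.8 CPM in NHSM-v and 1.88, 2.39 and 2.75 CPM in E-NHSM, and it rose (log2 fold change 2.55, SE 0.373, adjusted p 2.8e-05, no overlap). SOCS3 stood at 30.3, 35.8 and 38.5 CPM in NHSM-v and 27.9, 23.4 and 21 CPM in E-NHSM, and it rose (log2 fold change 0.53, SE 0.178, adjusted p 0.017, no overlap). SOCS2 stood at 34.7, 27 and 35.7 CPM in NHSM-v and 19.7, 15.5 and 30.7 CPM in E-NHSM, and it rose (log2 fold change 0.56, SE 0.237, adjusted p 0.049, overlapping groups). The calls of SOCS2 (adjusted p up to 0.17) and SOCS3 (adjusted p up to 0.07) were lost without some single libraries and under library totals, and that of SOCS2 also under upper-quartile scaling (adjusted p 0.09).

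**Figure D4:**
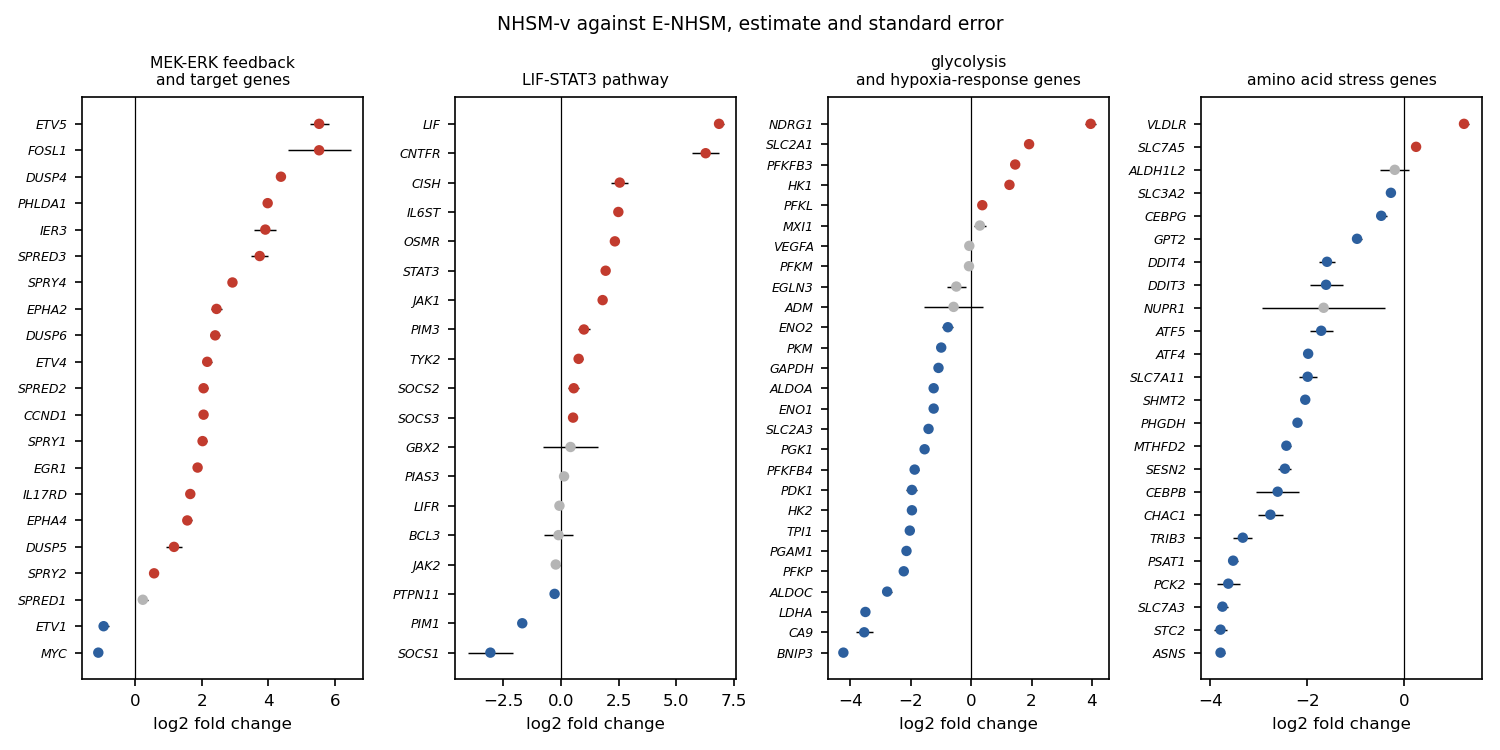
Log2 fold change of NHSM-v against E-NHSM with its standard error for each tested member of the MEK-ERK, LIF-STAT3, glycolysis and amino acid stress lists (red higher, blue lower, grey not called). Members of the MEK-ERK list lie mostly to the right of 0 and those of the metabolic lists mostly to the left.

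STAT3 and ESR1 are given apart, because each stretch of the STAT3-ERT2 transgene matches an endogenous gene and its reads can be counted on STAT3 or on ESR1. STAT3 stood at 559, 588 and 599 CPM in NHSM-v and 159, 148 and 145 CPM in E-NHSM, and it rose (log2 fold change 1.94, SE 0.0623, adjusted p 1.6e-12, no overlap). ESR1 stood at 1278, 1175 and 1280 CPM in NHSM-v and 0, 0.612 and 0 CPM in E-NHSM, and it rose (log2 fold change 12.60, SE 0.242, adjusted p 7.6e-15, no overlap), one of the largest rises named by rule. Among the 6 primed libraries, ESR1 was at 0, 0.863 and 0 CPM in the 3 whose columns carry the letter J and at 355, 399 and 358 CPM in the 3 with the letter K. STAT3 followed the same division, with 100, 102 and 122 CPM in the J libraries and 175, 216 and 184 CPM in the K libraries. In the other protocols STAT3 stood at 789, 787 and 762 CPM in TL2i, 364, 352 and 349 CPM in 4i/L/b, 303, 293 and 299 CPM in t2iLGöY and 154, 161 and 149 CPM in LCDM (EPS). STAT3 was thus highest in TL2i, where ESR1 was not. Over all 6 primed libraries ESR1 ranged from 0 to 399 CPM (median 178), and the median describes neither set. ESR1 reached 791, 727 and 755 CPM in 4i/L/b, 232, 228 and 226 CPM in TL2i and 413, 365 and 350 CPM in t2iLGöY. It stayed at 0.285, 0 and 0.379 CPM in LCDM (EPS), as low as in E-NHSM, and at 35, 0.111 and 0.483 CPM in TL-CDK8i. Within TL-CDK8i the libraries thus differed from each other, and the library with 35 CPM of ESR1 also had the highest STAT3, 258 CPM against 155 and 173 CPM. Whether the counts came from the transgene or from the endogenous genes was not tested. The groups may therefore differ in the cells they hold as well as in the medium, and for every difference in this report these cannot be told apart.

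**Figure D5:**
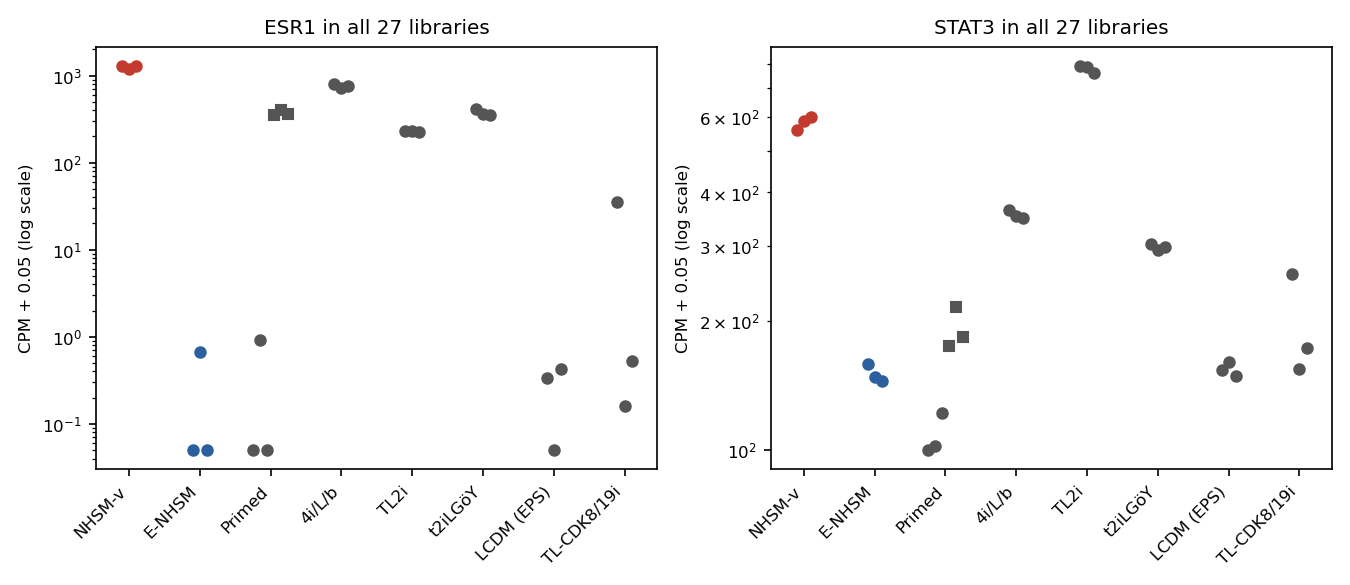
CPM plus 0.05 of ESR1 and of STAT3 on log scales in all 27 libraries, by group, with squares for the primed libraries of letter K and circles for the rest. ESR1 lies above 1000 CPM in NHSM-v and under 1 CPM in E-NHSM.

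Nodal-Activin genes moved in both directions. The Nodal-Activin list had 9 genes higher, 6 lower and 4 not passing among 19 tested (68.3% of all genes tested were called), and its median of -0.08 (the same with groups at or under the floor set to it) turns to 0.02 without NHSM-v library 1, so the list has no direction. Activin subunits and the epiblast ligand moved in opposite directions. INHBB, a subunit of activin, stood at 28.8, 32.2 and 33.8 CPM in NHSM-v and 0, 0.167 and 0 CPM in E-NHSM, and it rose (NHSM-v to E-NHSM ratio 612, 95% counting interval 209 to 2975, adjusted p 1.1e-09, no overlap). INHBA, a further activin subunit, stood at 184, 163 and 172 CPM in NHSM-v and 0.612, 1.06 and 1.78 CPM in E-NHSM, and it rose (log2 fold change 7.24, SE 0.209, adjusted p 5.2e-13, no overlap). NODAL, the ligand of the epiblast, stood at 3.05, 0 and 0 CPM in NHSM-v and 39.9, 33.3 and 40.7 CPM in E-NHSM, and it fell (log2 fold change -5.34, SE 0.685, adjusted p 7.4e-06, no overlap). Its counts in NHSM-v all came from library 1, so the size of this fall rests on that library. SMAD2, a shared transducer, did not pass, at 104, 131 and 125 CPM in NHSM-v and 126, 132 and 121 CPM in E-NHSM (adjusted p 0.48, overlapping groups). BMP pathway genes rose in 17 and fell in 2 of 21 tested, with a median of 2.55 (the same with groups at or under the floor set to it). MSX1, a homeobox target of BMP, stood at 16.8, 12.1 and 14.7 CPM in NHSM-v and 0, 0 and 0 CPM in E-NHSM, at least 279-fold higher (adjusted p 7.8e-08, no overlap). BMP6, a ligand, stood at 103, 125 and 116 CPM in NHSM-v and 8.95, 1.84 and 5.76 CPM in E-NHSM, and it rose (log2 fold change 4.35, SE 0.332, adjusted p 2.8e-08, no overlap). Primed libraries held 0 to 1.94 CPM (median 0.38) of BMP6. All NHSM-v libraries lay above that range, and of the E-NHSM libraries only library 2 lay within it. ID1, a target of BMP that keeps cells undifferentiated, fell, at 31.2, 30.9 and 41.4 CPM in NHSM-v and 107, 113 and 88 CPM in E-NHSM (log2 fold change -1.58, SE 0.144, adjusted p 2.1e-07, no overlap).

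FGF ligands and receptors were balanced, 6 higher and 6 lower among 16 tested, a share called near the 68.3% of all genes tested, with a median of -0.43 that turns to 0.32 when at least 10 counts are required in every library. FGF2, the ligand on which primed cells depend, stood at 24.7, 33.7 and 24.7 CPM in NHSM-v and 141, 168 and 169 CPM in E-NHSM, and it fell (log2 fold change -2.53, SE 0.135, adjusted p 5.0e-10, no overlap). FGF19 stood at 0.677, 0 and 0.44 CPM in NHSM-v and 18.3, 26 and 24.5 CPM in E-NHSM, and it made the largest fall (log2 fold change -5.94, SE 0.509, adjusted p 1.0e-07, no overlap). FGFR1, the most abundant receptor in both media, rose slightly, at 349, 352 and 364 CPM in NHSM-v and 298, 291 and 305 CPM in E-NHSM (log2 fold change 0.25, SE 0.0574, adjusted p 0.0016, no overlap), and did not pass under library totals (adjusted p 0.064). Notch pathway genes rose in 11 and fell in 1 of 19 tested, with 7 not passing and a median of 1.64, a share called near the 68.3% of all genes tested. NOTCH3 was the most abundant receptor in both media, at 1066, 940 and 1018 CPM in NHSM-v and 169, 144 and 156 CPM in E-NHSM (log2 fold change 2.69, SE 0.069, adjusted p 1.6e-13, no overlap). HES1, the classical Notch target, stood at 58.9, 53.1 and 49.8 CPM in NHSM-v and 4.33, 5.45 and 4.84 CPM in E-NHSM, and it rose (log2 fold change 3.46, SE 0.188, adjusted p 6.0e-10, no overlap). HEY2, a related target, fell, at 0, 0 and 0.352 CPM in NHSM-v and 11.9, 10.9 and 11.9 CPM in E-NHSM (log2 fold change -6.38, SE 0.717, adjusted p 1.9e-06, no overlap).

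Hedgehog and retinoic acid genes moved in both directions. For Hedgehog 7 of 11 genes tested rose and 2 fell (68.3% of all genes tested were called), with a median of 1.28. BOC, a co-receptor, stood at 389, 362 and 365 CPM in NHSM-v and 4.24, 2.39 and 3.98 CPM in E-NHSM, and it rose (log2 fold change 6.69, SE 0.139, adjusted p 1.7e-14, no overlap). GLI1, the target that reports active signalling, fell instead, at 0.226, 0 and 0.704 CPM in NHSM-v and 18.4, 17.8 and 14.6 CPM in E-NHSM (log2 fold change -5.66, SE 0.574, adjusted p 6.4e-07, no overlap). PTCH1, a receptor and target of the pathway, stood at 22.7, 15.6 and 18 CPM in NHSM-v and 29.7, 38.7 and 34.3 CPM in E-NHSM, and it fell (log2 fold change -0.87, SE 0.194, adjusted p 0.0011, no overlap). The ligands SHH, IHH and DHH were too low to be tested. For retinoic acid 8 of 13 genes tested rose and 4 fell (68.3% of all genes tested were called), with a median of 1.06 (the same with groups at or under the floor set to it). CYP26A1, which degrades retinoic acid and is induced by it, stood at 89.7, 72.7 and 84.9 CPM in NHSM-v and 2.21, 0.834 and 1.13 CPM in E-NHSM, and it rose (log2 fold change 5.84, SE 0.263, adjusted p 7.2e-11, no overlap). RXRG, a retinoid receptor gene, stood at 4.62, 5.66 and 9.86 CPM in NHSM-v and 0, 0 and 0 CPM in E-NHSM, at least 133-fold higher (adjusted p 1.1e-05, no overlap). DHRS3, a retinaldehyde reductase, stood at 1.13, 0.309 and 0.792 CPM in NHSM-v and 10.4, 9.34 and 10.1 CPM in E-NHSM, and it fell (log2 fold change -3.74, SE 0.514, adjusted p 1.5e-05, no overlap).

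Genes of energy metabolism were mostly higher in E-NHSM. Of 27 glycolysis and hypoxia-response genes tested, 17 fell, 5 rose and 5 did not pass (68.3% of all genes tested were called), with a median of -1.24. Their summed level was 6686, 6565 and 6540 CPM in NHSM-v and 15482, 14056 and 15472 CPM in E-NHSM. LDHA, which turns pyruvate into lactate, stood at 143, 135 and 155 CPM in NHSM-v and 1659, 1494 and 1727 CPM in E-NHSM, and it fell (log2 fold change -3.50, SE 0.0689, adjusted p 9.7e-15, no overlap). Primed libraries held 395 to 1235 CPM (median 747) of LDHA, between the media. BNIP3, a mitophagy receptor induced by hypoxia, stood at 52, 43.5 and 45 CPM in NHSM-v and 851, 832 and 942 CPM in E-NHSM, and it fell (log2 fold change -4.23, SE 0.0801, adjusted p 6.7e-15, no overlap). NDRG1, also induced by hypoxia, went the other way, at 84.2, 77.3 and 97.2 CPM in NHSM-v and 4.52, 7.01 and 5.06 CPM in E-NHSM (log2 fold change 3.96, SE 0.188, adjusted p 1.3e-10, no overlap). VEGFA, the classical hypoxia target, did not pass, at 148, 142 and 151 CPM in NHSM-v and 162, 142 and 155 CPM in E-NHSM (adjusted p 0.52, overlapping groups). Genes of oxidative phosphorylation fell too, 18 of 22 tested against 1 that rose, with a median of -1.02. ATP5A1, a subunit of the ATP synthase, was the most abundant in both media, at 392, 361 and 362 CPM in NHSM-v and 995, 905 and 946 CPM in E-NHSM (log2 fold change -1.36, SE 0.0551, adjusted p 2.2e-11, no overlap). SDHA, a subunit of succinate dehydrogenase, was the gene that rose, at 74.8, 63.3 and 70 CPM in NHSM-v and 44.5, 38.5 and 38.6 CPM in E-NHSM (log2 fold change 0.77, SE 0.127, adjusted p 9.2e-05, no overlap). Most transcripts of both lists were thus lower in NHSM-v, with exceptions in each.

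Sterol and fatty acid synthesis genes moved in both directions. Among 27 genes tested 10 rose and 13 fell (68.3% of all genes tested were called), with a median of -0.13. SQLE, an enzyme of sterol synthesis, made the largest rise, at 197, 205 and 200 CPM in NHSM-v and 64.7, 79.8 and 77.7 CPM in E-NHSM (log2 fold change 1.43, SE 0.0921, adjusted p 3.9e-09, no overlap). SCD, which desaturates fatty acids, made the largest fall, at 279, 299 and 267 CPM in NHSM-v and 794, 787 and 807 CPM in E-NHSM (log2 fold change -1.50, SE 0.0565, adjusted p 9.3e-12, no overlap). SREBF2, the regulator of sterol genes, did not pass, at 581, 574 and 599 CPM in NHSM-v and 629, 594 and 607 CPM in E-NHSM (adjusted p 0.25, overlapping groups), though it passed under library totals (adjusted p 0.0033) and upper-quartile scaling (adjusted p 0.012).

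Amino acid stress genes, which ATF4 induces when amino acids run short, were lower in NHSM-v in 20 of 24 tested, against 2 higher (68.3% of all genes tested were called). Their median was -2.01. ATF4 itself was the most abundant member in E-NHSM, at 303, 280 and 299 CPM in NHSM-v and 1154, 1148 and 1165 CPM in E-NHSM (log2 fold change -1.98, SE 0.0495, adjusted p 1.2e-13, no overlap). ASNS, which makes asparagine, stood at 59.9, 51.7 and 45.8 CPM in NHSM-v and 736, 690 and 730 CPM in E-NHSM, and it fell (log2 fold change -3.79, SE 0.0865, adjusted p 4.3e-14, no overlap). In primed libraries ASNS ranged from 150 to 255 CPM (median 200), so E-NHSM lay above the primed range and NHSM-v below it. STC2, a secreted stanniocalcin gene, stood at 9.02, 10.1 and 11.6 CPM in NHSM-v and 152, 148 and 126 CPM in E-NHSM, and it fell (log2 fold change -3.79, SE 0.139, adjusted p 7.2e-12, no overlap). The amino acid transporter gene SLC7A5 rose slightly, at 748, 764 and 748 CPM in NHSM-v and 649, 643 and 602 CPM in E-NHSM (log2 fold change 0.25, SE 0.0489, adjusted p 4.0e-04, no overlap).

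Cell cycle genes moved in both directions. Of 20 G1-S genes tested 13 rose and 5 fell (68.3% of all genes tested were called), with a median of 0.85. Both cyclins and inhibitors of the cycle were among those that rose. CDKN1A, the gene of the inhibitor p21, stood at 55.9, 54.3 and 59.2 CPM in NHSM-v and 2.87, 2.45 and 1.67 CPM in E-NHSM, and it rose (log2 fold change 4.58, SE 0.222, adjusted p 1.7e-10, no overlap). Primed libraries held 2.66 to 14.8 CPM (median 5.67) of CDKN1A, which E-NHSM matched more closely than NHSM-v. CCND1, the gene of cyclin D1, was the most abundant member in NHSM-v, at 494, 511 and 572 CPM in NHSM-v and 126, 131 and 123 CPM in E-NHSM (log2 fold change 2.05, SE 0.0695, adjusted p 3.0e-12, no overlap). CCNE1, the gene of cyclin E1, moved the other way, at 20.9, 20.1 and 15.1 CPM in NHSM-v and 93.3, 93.1 and 75.2 CPM in E-NHSM (log2 fold change -2.23, SE 0.158, adjusted p 1.2e-08, no overlap). Of 29 mitosis and proliferation genes 24 fell, 2 rose and 3 did not pass, with a median of -0.74. UBE2C, a ubiquitin enzyme of mitotic exit, made the largest fall, at 44.4, 44.8 and 41.7 CPM in NHSM-v and 114, 125 and 144 CPM in E-NHSM (log2 fold change -1.55, SE 0.113, adjusted p 1.6e-08, no overlap). TOP2A, which untangles DNA before division, stood at 465, 440 and 443 CPM in NHSM-v and 915, 904 and 950 CPM in E-NHSM, and it fell (log2 fold change -1.04, SE 0.0487, adjusted p 1.1e-10, no overlap). MKI67, the proliferation marker Ki-67 and the most abundant member in NHSM-v, did not pass, at 754, 723 and 735 CPM in NHSM-v and 761, 754 and 764 CPM in E-NHSM (adjusted p 0.36, overlapping groups), though it passed under library totals (adjusted p 0.0036) and upper-quartile scaling (adjusted p 0.014). The genes that fell on this list include both mitotic genes and genes of DNA replication.

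Targets of p53 moved in both directions, 7 higher, 8 lower and 7 not passing among 22 tested. Their median of -0.02 turns to 0.10 without NHSM-v library 2 and to 0.06 without E-NHSM library 3. PMAIP1, the gene of the cell death protein NOXA, stood at 2.71, 3.7 and 5.99 CPM in NHSM-v and 44.6, 45.8 and 60.2 CPM in E-NHSM, and it fell (log2 fold change -3.58, SE 0.264, adjusted p 1.8e-08, no overlap), while CDKN1A rose. CCNG1, a cyclin induced by p53, was the most abundant in both media, at 216, 199 and 183 CPM in NHSM-v and 944, 973 and 928 CPM in E-NHSM (log2 fold change -2.25, SE 0.0625, adjusted p 3.4e-13, no overlap). MDM2, the inhibitor of p53, did not pass, at 44.4, 43.4 and 49.1 CPM in NHSM-v and 37.3, 40.2 and 48.9 CPM in E-NHSM (adjusted p 0.51, overlapping groups). The BCL2 family was balanced, with 5 members higher, 5 lower and 5 not passing, and a median of 0.15 that turns to -0.04 without NHSM-v library 3. BAD, which promotes cell death, made the largest rise, at 18.4, 14.4 and 20.7 CPM in NHSM-v and 4.48, 9.62 and 5.71 CPM in E-NHSM (log2 fold change 1.43, SE 0.321, adjusted p 0.0012, no overlap). MCL1, a survival protein gene and the most abundant member in both media, stood at 279, 287 and 296 CPM in NHSM-v and 318, 373 and 373 CPM in E-NHSM, and it fell (log2 fold change -0.31, SE 0.0706, adjusted p 0.0013, no overlap). BCL2 itself did not pass, at 1.02, 3.29 and 3.87 CPM in NHSM-v and 0, 1.11 and 1.35 CPM in E-NHSM (adjusted p 0.18, overlapping groups). The share of members called was near that of all genes tested for p53 targets and the BCL2 family, so neither count is particular to the list.

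Outside the lists, most of the largest rises by fitted log2 fold change were of genes without a count in E-NHSM. For such genes the fitted value has no measured ratio behind it, so this rank is not an order of size. CPT1A, which brings fatty acids into mitochondria, stood at 119, 135 and 120 CPM in NHSM-v and 0, 0 and 0 CPM in E-NHSM, at least 2390-fold higher (adjusted p 1.3e-12, no overlap). The Polycomb-related gene ASXL3 stood at 118, 120 and 133 CPM in NHSM-v and 0, 0 and 0 CPM in E-NHSM, at least 2390-fold higher (adjusted p 1.2e-12, no overlap). TBC1D9, a regulator of vesicle traffic, stood at 119, 110 and 116 CPM in NHSM-v and 0, 0 and 0 CPM in E-NHSM, at least 2210-fold higher (adjusted p 1.4e-12, no overlap). No read of these 3 genes was counted in E-NHSM. WISP1, a matricellular Wnt target, stood at 97.7, 112 and 108 CPM in NHSM-v and 0 in each E-NHSM library, at least 2040-fold higher (adjusted p 2.8e-12, no overlap). LGI1, a synaptic secreted protein gene, stood at 90.8, 85.7 and 95.2 CPM in NHSM-v and 0 in each E-NHSM library, at least 1740-fold higher (adjusted p 4.4e-12, no overlap). CLSTN2, which encodes the synaptic calsyntenin 2, stood at 51.9, 59.9 and 60.3 CPM in NHSM-v and 0 in each E-NHSM library, at least 1110-fold higher (adjusted p 4.5e-11, no overlap). NPAS3, a transcription factor gene of the brain, stood at 46.2, 56.7 and 54.5 CPM in NHSM-v and 0 in each E-NHSM library, at least 1010-fold higher (adjusted p 8.0e-11, no overlap). These genes too had no read in E-NHSM, whereas MAP6, below, had few. PENK, the gene of proenkephalin, stood at 47.1, 43.7 and 37.9 CPM in NHSM-v and 0 in each E-NHSM library, at least 819-fold higher (adjusted p 2.0e-10, no overlap). MAP6, which stabilizes microtubules, stood at 199, 191 and 196 CPM in NHSM-v and 0.0471, 0 and 0.0538 CPM in E-NHSM, and it rose (NHSM-v to E-NHSM ratio 5637, 95% counting interval 1560 to 46561, adjusted p 4.1e-15, no overlap). FAM198B, a Golgi protein gene, stood at 35.8, 43.6 and 35.1 CPM in NHSM-v and 0 in each E-NHSM library, at least 733-fold higher (adjusted p 3.9e-10, no overlap).

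Among the largest falls were 4 genes outside the lists. LCK, a kinase of T cells that is also expressed by human pluripotent cells, stood at 0, 0 and 0 CPM in NHSM-v and 69.6, 88.9 and 77.2 CPM in E-NHSM, at least 778-fold lower (adjusted p 4.2e-11, no overlap). IFITM1, an interferon-induced membrane protein gene, stood at 0, 0 and 0.264 CPM in NHSM-v and 432, 443 and 454 CPM in E-NHSM, and it fell (E-NHSM to NHSM-v ratio 4415, 95% counting interval 1511 to 21411, adjusted p 2.2e-15, no overlap). It shares sequence with its relatives, so reads may have been split between them. The antiviral gene C19H19orf66 stood at 0, 0 and 0 CPM in NHSM-v and 37.3, 28.9 and 28 CPM in E-NHSM, at least 316-fold lower (adjusted p 2.8e-09, no overlap). KCNG3, a potassium channel subunit gene, stood at 0, 0 and 0 CPM in NHSM-v and 27.4, 27.9 and 25.6 CPM in E-NHSM, at least 269-fold lower (adjusted p 3.6e-09, no overlap). In primed libraries LCK ranged from 128 to 148 CPM (median 137), so NHSM-v lacked a gene that both primed and E-NHSM cells expressed.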

How the data were processed

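The deposited tables hold raw read counts for each gene, which, according to the submitters' processing notes, the authors made by demultiplexing with bcl2fastq, trimming adapters with cutadapt, aligning reads with HISAT2 and counting them with HTSeq. The genome build, the annotation, the strand setting and the handling of reads with several matches are not given in the sources used here. The 3 NHSM-v and 3 E-NHSM columns were joined by gene symbol, and 0 columns were left over. Genes with too few counts were removed by filterByExpr, libraries were scaled by TMM, and each gene was tested by the quasi-likelihood test of edgeR 4.0.16 (limma 3.58.1, R 4.3.3) with Benjamini-Hochberg adjustment over all 13392 genes tested. No replicate block was fitted, because deviations of same-numbered replicates did not correlate (-0.0149, 0.0019 and 0.011). The code was tested on simulated data.

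Genes were named by rule. The rule took the 12 largest rises and 12 largest falls in fitted log2 fold change among genes called without overlap at a mean log2 CPM of at least 3, apart from symbols that start with LOC or ENSMMUG. It also took the 4 most abundant genes with a change of at least 1 on the log2 scale in each direction, the 8 markers of embryonic stem cells, and from 37 gene lists the members with the largest calls, the most abundant members and members not called or not tested. Further list members were chosen after their values were seen: ACTA2, AXIN2, BMP6, CDH3, CISH, DCC, DCN, DUSP6, EPCAM, ETV1, FGF2, FOS, FZD1, FZD10, FZD2, FZD3, FZD7, HES1, HOXC6, IL6ST, INHBA, JARID2, JUN, KLF5, LDHA, LMX1B, NODAL, PAX3, PTCH1, SOCS2, SOCS3, STC2, TET1, TFCP2L1, TGFB2, TNC, UHRF1 and ZEB1. STAT3 and ESR1 were followed through all libraries for the same reason. The members and lists were chosen with earlier results of these data known. Alternatives were DESeq2 1.42.0, upper-quartile and total-count scaling, no filter or a filter of 10 counts in every library, all 8 groups in 1 fit, each library left out, thinned counts, a replicate block and a minimum change of 1 on the log2 scale.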

Additional observations from a re-analysis of the deposited data

Results flagged for a closer look

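DUSP6 stood at 695 CPM in the primed library J3, apart from the other 5 primed libraries, which ranged from 523 to 560 CPM. It was picked out because the gap to the next library was large beside the spread of all 6, and chance flags about 1 in 20 groups in this way. As 14 genes were checked in the primed libraries and 1 was picked out, chance alone would give about as many. The cause was not tested, and the value lies above both media with or without this library.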

How the results depend on the processing

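The division between the media held under every alternative, and no gene called in the comparison was called in the opposite direction under any of them. Leaving out each library in turn gave 8712 to 8963 genes called, 4205 to 4470 of them higher and 4350 to 4521 lower. DESeq2 called 9156 genes, upper-quartile scaling 9194 and library totals 9230, with the balance of directions moving to 4023 higher and 5207 lower under library totals. Asking for a change of at least 1 on the log2 scale left 5537 genes, 2838 higher and 2699 lower, a smaller number by construction. The distance between the media was 2.35 with a prior count of 0.5 and 5.57 over the 500 genes of highest variance, both by construction larger than 1.976, and 1.98 to 2 when a library was left out. With replicate number as a block 8787 genes were called, 8727 of them shared, although same-numbered replicates showed no sign of pairing.

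Of the list counts 1034 stayed within a factor of 1.5 of their value and 74 did not. Among the 74, 28 moved with 10 counts in every library and 18 with a minimum change of 1 on the log2 scale. Leaving out NHSM-v library 1 moved 5, and no other single library moved more than 2. Of the list medians 385 kept their sign and stayed within the spread between libraries while 132 did not. Medians changed sign in 8 lists, each named with its value in the report except for mesoderm without a filter (-1.51) and with thinned counts (-0.74), endoderm without a filter (0.43), with 10 counts in every library (0.26) and with all 8 groups (0.00), and Nodal-Activin with 10 counts in every library (0.89). Which genes could be tested differed in most of these, and the cause was not tested further.

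The 3 libraries a group measure an average over the cells of a medium, not how cells differ within it. NHSM-v was the shallower group, so its floor was the higher, and a gene without a count there is bounded only by that floor. Cultures, passages and clones cannot be told apart from the medium with these labels.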
